A study of Mus musculus with 29 samples.

Results

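A set of 9 genes that mark populations of adipose stromal cells were followed in cultures of the stromal vascular fraction (SVF), the cells that remain once fat is digested and the floating adipocytes are removed. They were chosen by name, as the rows whose Ensembl ID maps to Icam1, Vcam1, F3, Fmo2, Clec11a, Mgp, Meox2, Pdgfra or Pdgfrb, and all 9 were found among the 56953 features of the table. The SVF was crude, so no cell type was sorted out. It came from inguinal fat (iWAT, a subcutaneous depot) or perigonadal fat (pgWAT, a visceral depot) of adult male and female C57BL6/J mice, and every culture was grown for 4 days in preadipocyte medium with 1 nM basic fibroblast growth factor. Each culture gave 1 Smart-seq3 library, a full-length RNA-seq method used here on bulk RNA. By the labels iWAT gave 19 libraries (10 from males, 9 from females) and pgWAT gave 10 (4 from males, 6 from females), 29 in all. According to the study's methods the wells are technical replicates from a small number of separate experiments. The labels do not tie a well to an experiment, so the p-values below measure how much wells vary, which may be technical, and say nothing of variation among mice.

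Fat tissue holds a hierarchy of PDGFRα-positive stromal cells. Committed preadipocytes carry the adhesion receptors ICAM1 and VCAM1 and are held to be close to becoming adipocytes, whereas the regulatory cells known as Aregs carry tissue factor (F3, also called CD142) and have been described as restraining adipogenesis of their neighbours. Fmo2, Clec11a, Mgp and Meox2 were named with F3 as genes of that regulatory population. PDGFRα and PDGFRβ are receptor tyrosine kinases for platelet-derived growth factors, the former typical of fibroblasts and preadipocytes, the latter also of mural cells, the pericytes and smooth muscle cells around vessels.

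Total counts ran from 315316 to 1102234 per library, and a library with 0 counts of a gene could still hold up to 3, which stood for 2.72 to 9.51 CPM (counts scaled to a common library total), so the precision of low genes is limited. In all 19 iWAT libraries the sex-linked transcripts matched the labelled sex, but in 5 of the 10 pgWAT libraries they did not (pgWAT male 2 and 4, with 24 and 60 Xist counts and 1 and 0 counts of Y-linked genes, and pgWAT female 1, 2 and 3, with 10, 23 and 26 Y-linked counts and 7, 0 and 0 Xist counts). Groups were kept as labelled, and results that rest on these libraries are given with and without them. The cultures had the markers of fibroblasts in every library (6 genes, summed level 8288 to 26109 CPM), and the adipocyte genes Adipoq, Plin1, Lep and Cidec together reached at most 43.0 CPM. These are bulk libraries, in which fewer cells of a type and less RNA per cell cannot be told apart.

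Of the 9 markers, 7 were abundant enough to be tested. Clec11a, with 0 to 10 counts in a library, and Meox2, with 0 to 19, did not pass the filter on low counts. Per kilobase of transcript, Mgp was the most abundant of the 9 in all 29 libraries (mean 1750 CPM per kilobase), and it was followed by Pdgfra (118), F3 (112), Pdgfrb (91.3), Icam1 (36.6), Vcam1 (28.8), Fmo2 (7.46), Meox2 (2.19) and Clec11a (1.31). The order of Pdgfra, F3 and Pdgfrb differed by depot. Pdgfra stood above F3 in 19 of 19 iWAT libraries but in 3 of 10 pgWAT libraries, and F3 stood above Pdgfrb in 1 of 19 iWAT and 9 of 10 pgWAT libraries. Icam1 and Vcam1 were not separated, with Icam1 higher in 18 of 29 libraries, nor were Meox2 and Clec11a, with Meox2 higher in 16. Lengths were the median coding transcript of the GENCODE M21 annotation, and another isoform in use would move this order. The order also rests on the scaling by length. In CPM alone Mgp kept the highest mean (1079), but Pdgfrb had a higher mean than Pdgfra (494 and 338). Mgp then fell below Pdgfrb in some libraries, such as iWAT female 3 (99.1 and 432 CPM).

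**Figure D1:**
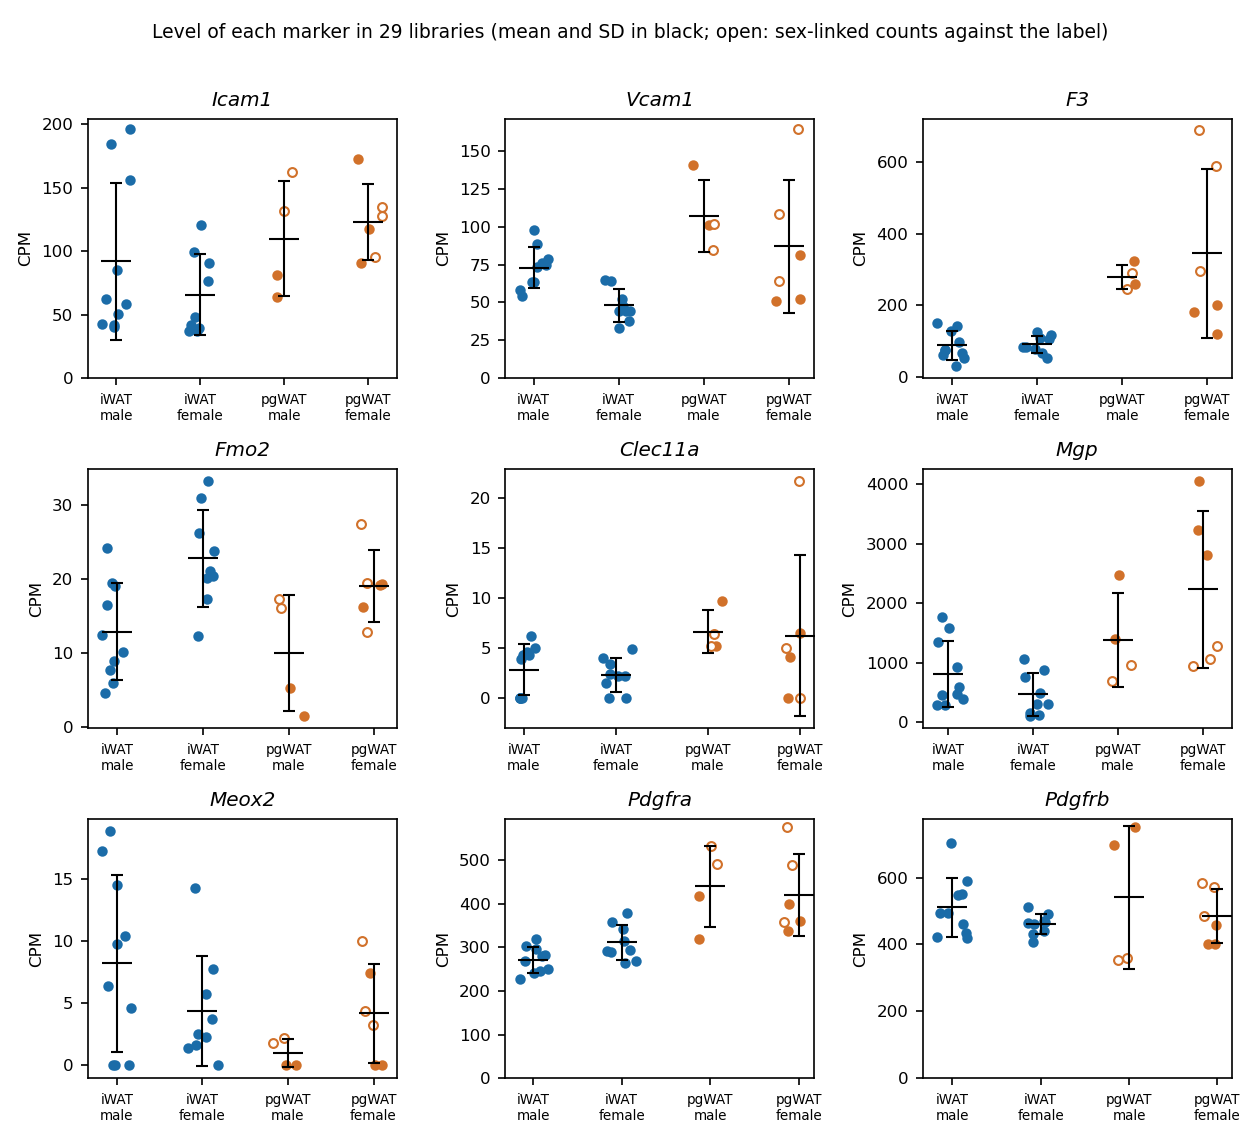
Level of each marker (CPM, linear axis from 0) in the 19 iWAT libraries (10 male, 9 female) and the 10 pgWAT libraries (4 male, 6 female). Each point is 1 library, black lines give the mean and SD of the group, and open points are the 5 pgWAT libraries whose sex-linked transcripts go against the label. F3 lies higher in pgWAT, Mgp and Pdgfra mostly so, and the Pdgfrb values of the depots overlap, those of pgWAT being more spread.

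The comparison between depots asks whether cultured cells of visceral and subcutaneous fat keep different levels of these markers. Vcam1, F3, Mgp and Pdgfra were higher in pgWAT, and no marker was called lower. Thus 4 of the 7 markers tested passed an FDR of 0.05 in edgeR's quasi-likelihood test, against 38.1% of all 8853 genes tested that passed in either direction and 20.1% that passed as higher in pgWAT. The median log2 fold change of the 7 was 0.56, beside 0.01 over all genes tested. Icam1, Fmo2 and Pdgfrb did not pass. The alternative fits called 4 to 6 of the markers, with these 4 among them each time.

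Of the committed preadipocyte receptors, Icam1 (ENSMUSG00000037405.9) binds the β2 integrins of leukocytes and is induced by inflammatory signals through NF-κB. Its level was between 40.6 and 196 CPM in iWAT male (median 60.5, n = 10) and between 37.2 and 120 in iWAT female (median 48.5, n = 9). The pgWAT male libraries had 81.6, 162, 63.9 and 132 CPM, and the pgWAT female libraries 90.4 to 172 (median 123, n = 6). All 10 pgWAT values lay within the range of iWAT, and 9 of 10 lay above its mean. The log2 fold change of pgWAT over iWAT was 0.54 (SE 0.25, FDR 0.0832) and did not pass. It was 1.37 with the 8 iWAT wells described below left out, a value with no test, since those wells were picked for their high Icam1. Without the 5 libraries against their label it was 0.23 (FDR 0.664).

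Vcam1 (ENSMUSG00000027962.15), a ligand of integrins that contain the products of Itga4 and Itga9, rose 1.61-fold in pgWAT (log2 fold change 0.69, SE 0.15, FDR 0.000338). It was at 54.1 to 97.8 CPM in iWAT male (median 74.2) and at 33.5 to 64.7 in iWAT female (median 44.4). The pgWAT male libraries had 141, 102, 101 and 84.6 CPM, and the pgWAT female libraries 51.2 to 165 (median 72.8). In pgWAT 5 of 10 libraries exceeded every iWAT library, while the lowest pgWAT female libraries fell among the iWAT values. Among labelled females the difference was 0.84 (FDR 0.00217), against 0.53 (FDR 0.0710) among labelled males. The difference among females was 0.37 and did not pass without the 5 libraries against their label. The interaction of depot and labelled sex was -0.31 (SE 0.30, FDR 0.822), so a difference between the sexes was not shown. Since 5 pgWAT libraries go against their label, it cannot show that the sexes are alike. Without those libraries the interaction of Vcam1 changed sign. None of the markers passed in it then (0 of 8 tested), while 244 of 9516 genes did.

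F3 (ENSMUSG00000028128.14), the surface receptor that starts blood clotting and the defining antigen of Aregs, had the largest fold change of the 7 over both sexes, although Mgp had a larger one among labelled females and without the 5 libraries against their label. It rose 3.41-fold in pgWAT (log2 fold change 1.77, SE 0.21, FDR 4.28e-08), 3.76-fold among labelled females and 3.09-fold among labelled males. The iWAT libraries ran from 29.4 to 150 CPM (median 75.9 in male, 84.4 in female). The pgWAT male libraries were close together at 260, 289, 322 and 245 CPM, whereas the pgWAT female libraries ran from 120 to 688 (median 248). In pgWAT 9 of 10 libraries exceeded every iWAT library, and the exception was pgWAT female 6 at 120 CPM. The highest values, 688 and 587 CPM, belonged to pgWAT female 3 and 2, both of which carried Y-linked counts. Without the 5 libraries against their label the log2 fold change was 1.27 (FDR 2.11e-05). Macrophage markers were also higher in some pgWAT libraries (7 genes, summed level 707 to 7759 CPM in pgWAT and 619 to 2420 in iWAT), with the highest sums, 7759 and 7166 CPM, in pgWAT male 3 and 1. Those libraries had 322 and 260 CPM of F3, less than pgWAT female 2 and 3, whose macrophage sums were 3236 and 3064. The 5 pgWAT libraries with macrophage sums of 2157 to 7759 CPM had 260 to 688 CPM of F3, and the 5 with sums of 707 to 1118 had 120 to 289, a small overlap. Of the 7 macrophage genes 5 were tested, and 3 rose and 0 fell in pgWAT, beside 20.1% of all genes that passed as higher. The pan-leukocyte gene Ptprc, also in that list, stayed at or under 24.99 CPM in every library. The part of these cells in the F3 levels was not tested.

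The promoters of Icam1 and F3 are printed because both genes are textbook targets of NF-κB and because the letters of its site can be looked up in them. RefSeq promoters (250 bases before to 50 bases after the start, build GRCm38.p6, whereas the counts rest on GRCm39) were at hand for 6 of the 9 markers. Capitals mark the letters GGNNNTTCC, the core of sites bound by NF-κB, and TATAAA, on either strand. A match on the opposite strand therefore shows as its reverse complement. Icam1 lies on the plus strand at chr9:21015690-21015989 and F3 on the plus strand at chr3:121723287-121723586.
Icam1: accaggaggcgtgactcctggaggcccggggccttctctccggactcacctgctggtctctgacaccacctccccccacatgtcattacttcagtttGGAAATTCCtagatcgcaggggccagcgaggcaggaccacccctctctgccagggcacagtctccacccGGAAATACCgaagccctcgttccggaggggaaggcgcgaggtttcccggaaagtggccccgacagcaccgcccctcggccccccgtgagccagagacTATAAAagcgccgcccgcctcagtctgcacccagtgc
F3: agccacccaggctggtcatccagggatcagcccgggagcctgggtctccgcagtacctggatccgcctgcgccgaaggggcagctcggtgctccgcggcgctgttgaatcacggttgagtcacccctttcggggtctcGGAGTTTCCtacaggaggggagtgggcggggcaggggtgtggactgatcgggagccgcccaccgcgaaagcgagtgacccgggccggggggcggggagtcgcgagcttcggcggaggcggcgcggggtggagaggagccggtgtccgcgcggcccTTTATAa
Icam1 held GGNNNTTCC in 2 places, GGAAATTCC from 153 bases before the start, read on both strands, and GGTATTTCC from 84 bases before it on the opposite strand, and it held TATAAA on its own strand just after the start. F3 held 1 GGNNNTTCC, GGAGTTTCC from 112 bases before the start, and 1 TATAAA on the opposite strand after it. Of the other promoters, that of Meox2 held both motifs and those of Fmo2, Clec11a and Pdgfra neither. Of all 32851 promoters listed, 18.5% held GGNNNTTCC and 13.6% held TATAAA, so a match is a description and no evidence of binding.

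Other genes that NF-κB induces were read beside the 38.1% of all genes tested that passed in either direction between depots. The part of NF-κB in the marker levels was not tested. Of 12 such genes 8 were tested, of which 1 rose and 2 fell in pgWAT, with a median log2 fold change of 0.01. Sod2, the mitochondrial superoxide dismutase, rose (0.53, FDR 0.00456). The monocyte chemokines Ccl2 (-1.51, FDR 4.15e-06) and Ccl7 (-0.95, FDR 4.75e-05) fell, Ccl2 from 2122 ± 371 CPM in iWAT (SD, n = 19) to 732 ± 609 in pgWAT (SD, n = 10).

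Mgp (ENSMUSG00000030218.3) encodes matrix Gla protein, a secreted inhibitor of calcification that also binds bone morphogenetic proteins. It rose 2.84-fold in pgWAT (log2 fold change 1.504, SE 0.33, FDR 0.000505). The range was 285 to 1772 CPM in iWAT male (median 534) and 99.1 to 1067 in iWAT female (median 311). The pgWAT male libraries had 2482, 695, 1400 and 963 CPM, and the pgWAT female libraries 941 to 4063 (median 2048). Every pgWAT value lay above the iWAT mean of 651 CPM, but 4 of 10 exceeded every iWAT library. The difference passed among labelled females (4.75-fold, FDR 0.000329), and it was 1.69-fold among labelled males (log2 fold change 0.76, FDR 0.303). The male value moved to 0.32 without pgWAT male 1 and to 0.98 without pgWAT male 2, and passed in neither case. Without the 5 libraries against their label the log2 fold change was 2.02 over both sexes (FDR 0.000106), 2.82 among females (FDR 7.08e-05) and 1.23 among males (FDR 0.206). The interaction between depot and sex was -1.49 (SE 0.71, FDR 0.543), so a difference between the sexes was not shown.

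Fmo2 (ENSMUSG00000040170.14), a flavin-containing monooxygenase, was low in both depots. It was at 4.52 to 24.2 CPM in iWAT male (median 11.3) and at 12.3 to 33.4 in iWAT female (median 21.1), with 5.21, 17.3, 1.39 and 16.1 in the pgWAT male libraries and 12.8 to 27.5 (median 19.3) in pgWAT female. The depots overlapped widely (log2 fold change -0.31, SE 0.26, FDR 0.370). Without the 5 libraries against their label it was -1.18 (FDR 0.0191), a value that rests on 2 pgWAT male libraries with 3 and 1 counts.

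Clec11a (ENSMUSG00000004473.11), which encodes the secreted growth factor osteolectin, and Meox2 (ENSMUSG00000036144.7), a homeobox transcription factor, were near the limit of detection. Clec11a had 37 counts over the 19 iWAT libraries, 6 of them at 0, and 36 over the 10 pgWAT libraries, 2 of them at 0. The 4 pgWAT male libraries had 5.21, 5.19, 9.72 and 6.42 CPM, the pgWAT female libraries 0 to 21.7, and the iWAT libraries 0 to 6.23. Meox2 had 87 counts in iWAT, with 4 libraries at 0, and 15 in pgWAT, with 4 at 0. Its highest level, 18.9 CPM, was in an iWAT male library. When all genes with a count were tested, Clec11a did not pass (log2 fold change 1.10, FDR 0.122). Meox2 was lower in pgWAT (-1.51, FDR 0.0480), a call that rests on these few counts. For Meox2 it was -2.83 (FDR 0.0235) among labelled males and -0.20 (FDR 0.993) among labelled females. Without the 5 libraries against their label, in a filtered fit that kept Meox2, it did not pass (-3.11, FDR 0.0585).

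Genes tied to these low markers did differ. Itga11, the integrin chain that serves as receptor of osteolectin, rose from 5.64 ± 5.64 CPM in iWAT (SD, n = 19) to 118 ± 39.2 in pgWAT (SD, n = 10), a log2 fold change of 4.40 (SE 0.28, FDR 2.20e-14), and its partner chain Itgb1 rose by 0.41 (FDR 0.000213). Meox1, the homeobox relative of Meox2, fell by 3.89 on the log2 scale (SE 0.59, FDR 2.23e-06), from 35.2 ± 28.2 CPM in iWAT to 2.57 ± 2.31 in pgWAT.

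The growth factor receptors parted. Pdgfra (ENSMUSG00000029231.16) rose 1.47-fold in pgWAT (log2 fold change 0.56, SE 0.09, FDR 1.19e-05) and passed in labelled females (0.43, FDR 0.0107) and labelled males (0.69, FDR 0.000371). It had a narrow range in iWAT, 228 to 320 CPM in male (median 274) and 264 to 379 in female (median 294). The pgWAT male libraries had 418, 532, 319 and 490 CPM, and the pgWAT female libraries 337 to 577 (median 380). All 10 pgWAT libraries lay above the iWAT mean of 291 CPM and 6 above every iWAT library. Without the 5 libraries against their label the log2 fold change was 0.32 (FDR 0.0258). Within a labelled sex it then no longer passed (0.23, FDR 0.280 among females, and 0.41, FDR 0.107 among males). The summed fibroblast markers moved with it, at 11165 ± 2222 CPM in iWAT and 19293 ± 4603 in pgWAT (SD). Of these 5 of 6 rose and 0 fell in pgWAT, beside 20.1% of all genes that passed as higher. Their part in the Pdgfra level was not tested.

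Pdgfrb (ENSMUSG00000024620.12) was 488 ± 70.9 CPM in iWAT (SD, n = 19) and 507 ± 140 in pgWAT (SD, n = 10), a log2 fold change of 0.07 (SE 0.11, FDR 0.629). The iWAT libraries ran from 420 to 703 CPM in male (median 494) and from 409 to 513 in female (median 463). The pgWAT male libraries had 696, 360, 753 and 354 CPM, and the pgWAT female libraries 402 to 585 (median 472). The pgWAT libraries were more spread than those of iWAT (coefficient of variation 27.6% and 14.5%). Of the mural markers, Des, which muscle cells also express, rose (3.06, FDR 2.89e-11), 2 did not pass and 6 were too low to test, with the pericyte genes Rgs5 and Kcnj8 at most 21.5 and 6.77 CPM in any library. Of 4 smooth muscle genes tested 3 rose, and of 4 endothelial genes tested 1 rose, beside 20.1% of all genes. Among the ligands of both receptors only Pdgfd could be tested (0.25, not called), and Pdgfa, Pdgfb and Pdgfc had mean levels of 3.20 to 6.04 CPM.

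In pgWAT the level of Pdgfrb went with the sex-linked transcripts rather than the label, and so did the macrophage markers. The 5 libraries with the most Pdgfrb (753, 696, 585, 573 and 486 CPM) were those with 10 or more Y-linked counts, and the 5 with the least (459, 402, 402, 360 and 354 CPM) were those with 22 or more Xist counts. The same split parted the summed macrophage markers, at 2157 to 7759 CPM in the former and 707 to 1118 in the latter. This order was seen after the values were known, and neither it nor the part of macrophages in it was tested. How many of all genes part these libraries in the same way was not counted, so the split is not shown to be particular to Pdgfrb.

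**Figure D2:**
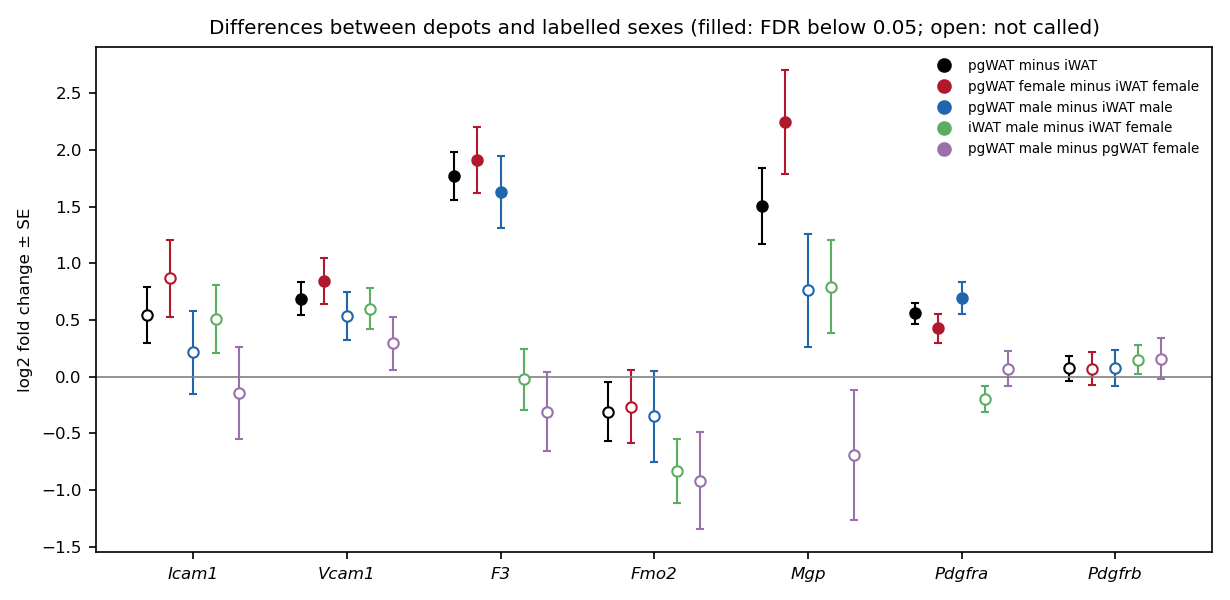
Log2 fold change ± SE of the 7 markers tested, for pgWAT minus iWAT over both sexes and within each labelled sex, and for male minus female within each depot. Filled points passed an FDR of 0.05 and open points did not. The filled points belong to Vcam1, F3, Mgp and Pdgfra and to depot differences only.

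No marker was called between the labelled sexes. In iWAT, where the labels matched the sex-linked transcripts, 0 of the 7 passed in edgeR (3.22% of all genes did). In pgWAT 0 passed by label (0.0113%, 1 gene), and 0 for the interaction of depot and labelled sex (0.181%). There 5 of 10 pgWAT libraries went against their label. Without these 5, 3 of 8 markers passed between the sexes of pgWAT, beside 536 of 9516 genes. Vcam1 came nearest in iWAT. It was 72.9 ± 13.6 CPM in male (SD, n = 10) and 48.1 ± 10.8 in female (SD, n = 9), and all 10 male libraries lay above the female mean (log2 fold change of male over female 0.60, SE 0.18, FDR 0.0562). DESeq2 gave an adjusted p of 0.0385 for it and limma-voom 0.0491, while within plate column 7 the difference was 0.38 (FDR 0.277). Fmo2 leaned the other way, with 12.9 ± 6.60 CPM in male and 22.9 ± 6.57 in female (-0.83, SE 0.28, FDR 0.0996), and 9 of 10 male libraries lay below the female mean. Icam1 (0.51, FDR 0.426) and Mgp (0.79, FDR 0.343) had higher means in iWAT male, with overlapping ranges. Within the female depot contrast 4 of 7 markers passed, beside 26.8% of all genes, and within the male contrast 2 of 7, beside 20.3%.

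Other genes tied to commitment were called between the sexes in iWAT. Of 12 further genes of committed preadipocytes and adipogenesis, 6 were higher in male and 1 lower, beside the 3.22% of all genes called, among them the fatty acid carrier Fabp4 (1.899, FDR 1.31e-07), Lpl (0.82, FDR 0.00251) and the adipogenic regulator Pparg (1.26, FDR 0.00267). Lpl, lipoprotein lipase, was also higher in pgWAT. The macrophage genes Csf1r (0.95, FDR 0.0107) and Lyz2 (1.24, FDR 0.0206) were higher in iWAT male too.

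When the pgWAT libraries against their label were left out, Vcam1 (0.91, FDR 0.0414) and Pdgfrb (0.76, FDR 0.00858) were higher in pgWAT male than in pgWAT female, and Fmo2 was lower (-2.54, FDR 0.0200). That comparison sets 2 libraries against 3, and the 3 female libraries all stood in plate column 8, as did 1 of the males. The summed macrophage markers were 7166 and 7759 CPM in these males and 707 to 810 in these females, and the proliferation genes 816 and 894 against 442 to 506. Their part in these differences was not tested.

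Position on the plate went with the level of several markers, Icam1 and Mgp among them. The 8 iWAT libraries in wells A7 to H7 (4 male in A7 to D7, 4 female in E7 to H7) had 76.8 to 196 CPM of Icam1, and the other 11 iWAT libraries 37.2 to 62.7, so the ranges did not overlap. For Mgp the values were 500 to 1772 CPM against 99.1 to 589, a small overlap. The pattern held in each sex, with Icam1 at 156 ± 49.6 CPM in male wells A7 to D7 and 49.5 ± 9.31 in the other 6 male wells, and at 96.9 ± 18.3 in female wells E7 to H7 and 40.9 ± 4.67 in the other 5 (SD). Vcam1 overlapped between these wells over both sexes but not within a sex, with 76.0 to 97.8 CPM against 54.1 to 74.8 in male and 47.9 to 64.7 against 33.5 to 44.4 in female. Pdgfra (284 to 320 against 228 to 280 CPM) and Pdgfrb (547 to 703 against 420 to 495) did not overlap in male, and in female they did. Over both sexes 0.486% of all 8853 genes tested had ranges that did not overlap between these wells, 31 higher and 12 lower. Icam1 was the sole marker among them. That share does not apply to the smaller splits within a sex, for which none was counted. The wells were grouped after the levels had been seen, so no test is given. The summed macrophage markers were 1558 ± 664 CPM in wells A7 to H7 and 1285 ± 582 in the others (SD), fibroblast markers 13026 ± 1400 and 9811 ± 1652, and proliferation genes 841 ± 87.7 and 1009 ± 123. Their part was not tested, and neighbouring wells may share an experiment, which the labels do not say.

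**Figure D3:**
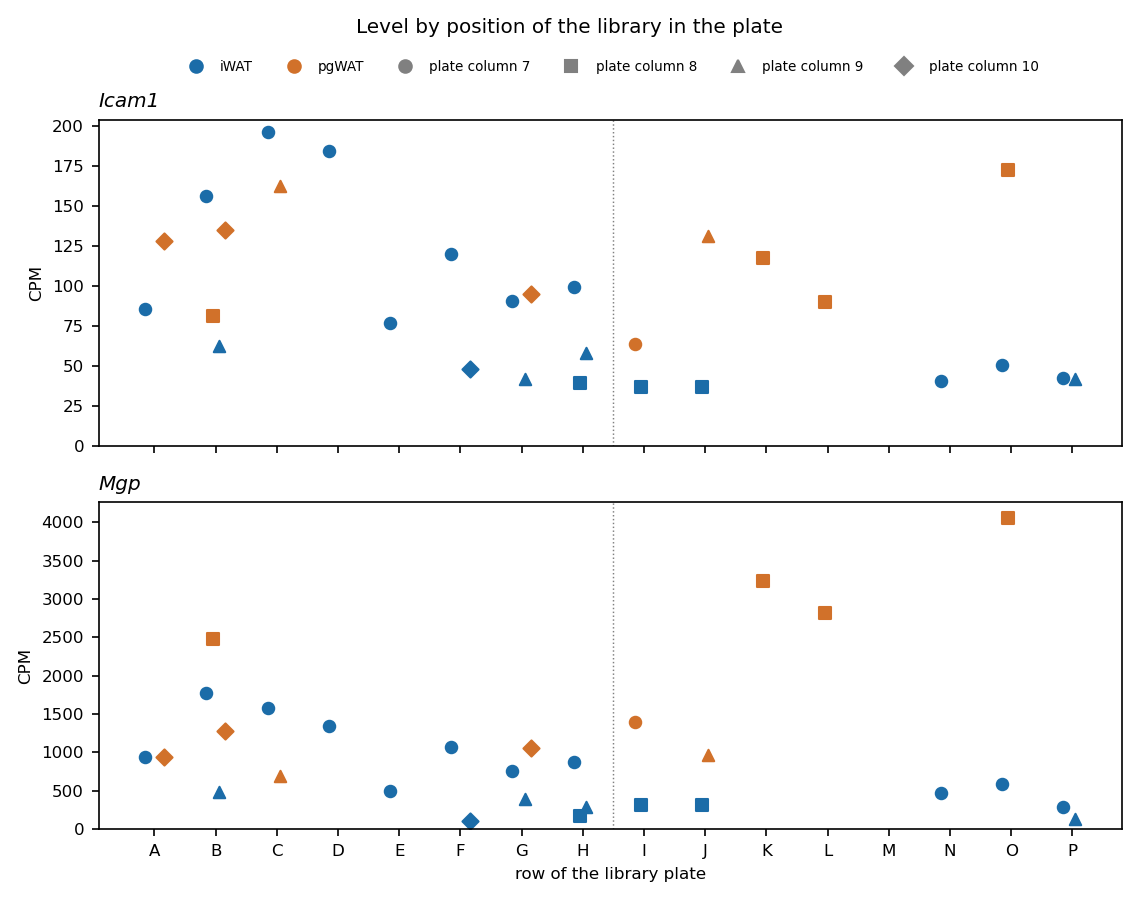
Level of Icam1 and Mgp (CPM, linear axes from 0) by the row of the library's well, with blue for iWAT, orange for pgWAT and the symbol giving the plate column. The dotted line parts rows A to H from the rest. Blue circles left of the line are the 8 iWAT wells A7 to H7, with 76.8 to 196 CPM of Icam1, and orange squares are the 4 pgWAT wells of column 8, with 2482 to 4063 CPM of Mgp.

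In pgWAT the plate column went with Mgp but not with Icam1. The 4 pgWAT libraries of column 8 had 2482 to 4063 CPM of Mgp and the other 6 had 695 to 1400, while the 3 iWAT libraries of column 8 had 165 to 311. The share of all genes that part these 4 pgWAT libraries from the other 6 was not counted. The respective Icam1 values of pgWAT were 81.6 to 172 and 63.9 to 162 CPM, which overlapped. Within columns 8 and 9 the depot difference was larger for Icam1 than over the plate, whereas in column 7 the single pgWAT library had 63.9 CPM and the 11 iWAT libraries a mean of 104. In column 8, with 3 female libraries of each depot, it was 1.65 (FDR 2.00e-05) for Icam1, 3.67 (FDR 1.18e-11) for Mgp and 0.93 (FDR 0.00183) for F3. In column 9, with 2 pgWAT male libraries, both against their label, and 3 iWAT male libraries, it was 1.47 (FDR 0.000306) for Icam1, 1.09 (FDR 0.000599) for Mgp, 1.69 (FDR 1.47e-05) for F3 and 0.94 (FDR 0.000378) for Pdgfra. With plate column as a term over all libraries, Icam1 passed (1.14, FDR 0.00192). Columns 8 and 9 hold none of wells A7 to H7, and their iWAT libraries had 37.2 to 39.7 and 41.8 to 62.7 CPM of Icam1. Column 7, which holds those wells, has its own term in the last fit. The Icam1 and Mgp values of these fits are thus not independent of the high levels in wells A7 to H7.

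The neighbours of these markers in their populations were mixed. They were read beside the 38.1% of all genes that passed in either direction and the 20.1% that passed as higher. Of the 12 further committed genes 8 rose and 2 fell in pgWAT (median 0.60). Hsd11b1, which regenerates active glucocorticoid, rose from 29.8 ± 17.9 to 290 ± 84.8 CPM (SD, 3.30, FDR 1.73e-13), as did Lpl (1.89, FDR 1.09e-13) and the lipid carrier Apoe (2.33, FDR 1.05e-08), whereas Dlk1, an inhibitor of adipogenesis, fell by 5.77 on the log2 scale (FDR 1.15e-06) and Pparg by 1.61 (FDR 7.38e-06). Of 9 further regulatory genes 5 were tested, and Igfbp3, Abcg1 and Adam12 rose (2.77, 0.68 and 0.42) and none fell. Of 9 genes of interstitial progenitors, the least committed cells, 7 were tested. Dpp4 (2.74) and Cd55 (1.79) rose and Cd34 (-1.74) and Wnt2 (-1.37) fell.

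Partners of the surface markers were read beside the 20.1% of all genes called higher in pgWAT. Of 7 tested integrins and cytoskeletal partners of ICAM1 and VCAM1, 5 rose in pgWAT and 0 fell. Itgam (1.55, FDR 4.12e-05) and Itgb2 (1.20, FDR 0.00239), the chains of a leukocyte receptor for ICAM1, were among them, as were Itga9 (1.60, FDR 3.58e-07) and Ezr (0.85, FDR 6.95e-05). In the tissue factor pathway 3 of 7 rose and 1 fell, beside 38.1% of all genes that passed in either direction. Tfpi, the inhibitor of tissue factor, rose from 54.2 ± 10.01 to 92.3 ± 20.8 CPM (SD, 0.76, FDR 3.82e-06), as did Thbd, the thrombin cofactor thrombomodulin (0.87, FDR 1.23e-05), and F7, the ligand of tissue factor (1.41, FDR 0.00273), while the protease receptor F2rl1 fell (-1.40, FDR 0.000489). Of 6 tested genes related to Mgp by Gla modification, binding or matrix, Vkorc1 of the vitamin K cycle (0.72, FDR 1.51e-06), the Gla protein Gas6 (0.50, FDR 0.0342) and Sparc (0.41, FDR 9.54e-06) rose and Spp1 fell (-0.68, FDR 0.000483). The mesothelial genes Upk3b (7.22) and Wt1 (4.88) were also higher in pgWAT, where Krt19 was lower (-1.43), and 5 of 6 proliferation genes were lower, with summed levels of 938 ± 137 CPM in iWAT and 551 ± 166 in pgWAT. The part of these in the marker levels was not tested.

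**Figure D4:**
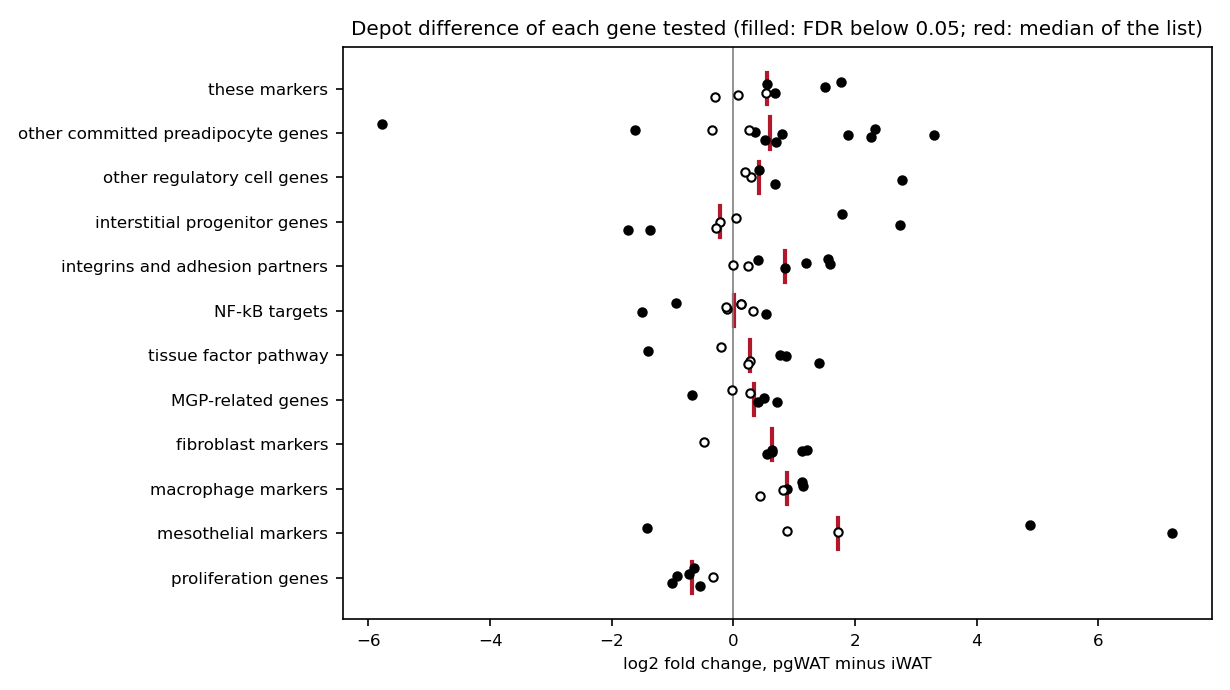
Log2 fold change of pgWAT over iWAT for each gene tested in the marker set and in 11 lists of related genes, with filled points past an FDR of 0.05 and a red line at the median of each list. Of the markers 4 are filled and lie right of 0, while the committed and interstitial progenitor lists have filled points on both sides.

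Pairs of markers varied together to unequal degrees. Over the 29 libraries, which share depot differences and depth, F3 and Pdgfra had a Pearson r of 0.76 between their log2 CPM, and Icam1 and Mgp 0.75. With each group's mean subtracted these were 0.38 and 0.65. In iWAT alone Icam1 and Mgp reached 0.85 (n = 19), the libraries of wells A7 to H7 being high in both, and in pgWAT alone -0.11 (n = 10). Icam1 and Vcam1, named for the same population, had 0.50, and F3 and Fmo2, both named for regulatory cells, 0.01. Pdgfra and Pdgfrb had 0.01, and Pdgfrb and Fmo2 -0.47. The mean over the 21 pairs was 0.29, or 0.26 with the group means subtracted.

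**Figure D5:**
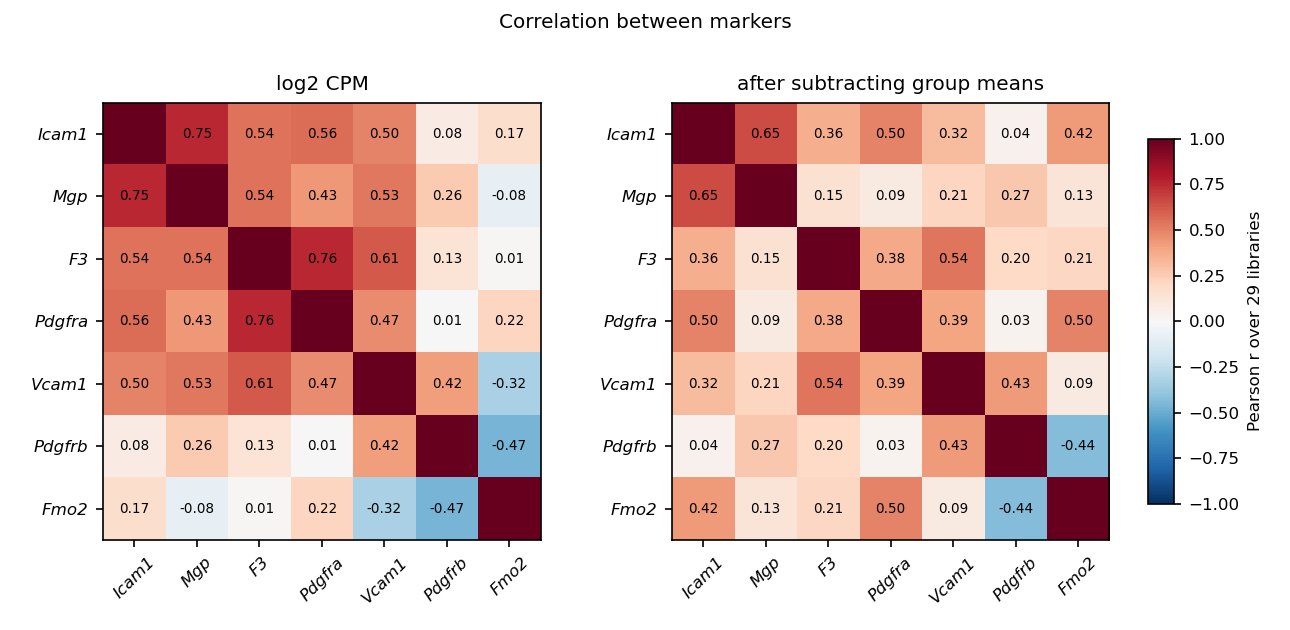
Pearson r between the 7 markers tested over 29 libraries, for log2 CPM (left) and after each group's mean was subtracted (right). For Icam1 the highest value in both panels is the one with Mgp, 0.75 and 0.65, and Pdgfrb and Fmo2 have the lowest, -0.47 and -0.44.

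Among abundant genes (5290 compared with each marker, and 5291 with Fmo2), the one most like Icam1 was Tcn2 (r = 0.85, and 0.85 with the group means subtracted), followed by Pamr1 and Arsa. Prelp, Ctsd and Sptbn1 were most like Vcam1 (0.85, 0.81 and 0.79), and Fbln5, C1qa and Adamts2 most like F3 (0.90 each), C1qa being a complement gene that macrophages express. For Mgp these were S100a1, Fcgrt and Colec12 (0.83 to 0.85), for Pdgfra Ccdc80, Bicc1 and Cercam (0.89 to 0.90), for Pdgfrb Gpnmb, Rnh1 and Mfsd12 (0.81 to 0.83) and for Fmo2 Dchs1, Acat2 and Serinc2 (0.73 to 0.74).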

How the data were processed

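SVF cultures of iWAT and pgWAT were measured by Smart-seq3 bulk RNA-seq in 29 wells. The authors trimmed reads with NGmerge, quantified them with Salmon 1.9.0 against Gencode on GRCm39, used STAR 2.7.10a, FastQC 0.11.9 and MultiQC 1.12 for quality control and discarded wells in which too few genes were seen. The deposited values are expected counts per gene from reads with and without molecular identifiers, not normalized, and were rounded here (85.1% of the values above 0 were exactly whole). Duplicate reads are therefore included, and limits cover counting error only. Symbols matched 91.4% of features.

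Differences were tested two-sided with edgeR 4.0.16 in R 4.3.3 (TMM, filterByExpr, quasi-likelihood, 1 term per group, all 29 libraries), and called at a Benjamini-Hochberg FDR below 0.05 over 8853 genes. CPM values use full totals times TMM factors (0.949 to 1.06). Correlations use log2 CPM with a prior count of 2 and, for the other genes, an average log2 CPM of at least 5. Alternatives were RLE factors, total counts, no filter, DESeq2 1.42.0, limma-voom (limma 3.58.1), plate column, libraries left out and single columns. Named are all 9 markers, the called genes of the related lists (at most the 4 with the lowest p in each) and the 3 genes most correlated with each marker. Dlk1, Itgb2, Pparg in the depot contrast and the list genes given as low or not called were named after their values were seen. Groups follow the labels, and the study's methods give other group sizes. Markers and lists were chosen with earlier results of these data known. In the GENCODE M21 annotation antisense genes lie over Icam1, Vcam1 and Pdgfra, with at most 2 counts in a library.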

Additional observations from a re-analysis of the deposited data

Results flagged for a closer look

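Clec11a in pgWAT female 3 was at 21.7 CPM (10 counts), apart from the other 5 pgWAT female libraries at 0 to 6.51 CPM. Of 36 sets of values examined (9 markers in 4 groups) this was the sole library set apart, and chance sets apart about 1 in 20. The library is among those whose sex-linked transcripts go against the label, and it also had the highest F3, 688 CPM.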

How the results depend on the processing

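Each value below is a count of calls or a log2 fold change in the order of its contrast. In the depot contrast Vcam1, F3, Mgp and Pdgfra kept direction and call under all alternatives, leave-one-out included. Without the 5 pgWAT libraries against their label, 9516 genes were tested. Of these 1741 passed in the female depot contrast (2374 of 8853 with them) and 872 in the male one (1801). In the sex contrasts 556 passed in iWAT (285) and 536 in pgWAT (1), and 244 passed in the interaction (16). The markers called were then 2 of 8 tested in the female and 4 in the male depot contrast, 2 in the iWAT and 3 in the pgWAT sex contrast, and these changed sign: Icam1 in the male depot contrast (-0.42), Pdgfrb in the female one (-0.14), F3 (0.74) and Pdgfra (-0.019) between the sexes of pgWAT and Vcam1 (0.32) and F3 (0.77) in the interaction. Without a filter 509 genes passed in the iWAT sex contrast, 59 in that of pgWAT and 73 in the interaction. DESeq2 gave 16 in the pgWAT sex contrast and 37 in the interaction, and limma-voom 6 and 2. Each of these 3 fits called 1 marker, Vcam1, between the sexes of iWAT. With plate column as a term 496 and 58 genes passed in the sex contrasts of iWAT and pgWAT and 4 markers in the male depot contrast (1735 of 8853 genes), and the sign changed for Pdgfrb in the female depot contrast (-0.059), F3 between the sexes of pgWAT (0.34) and F3 in the interaction (0.35). Within column 8, 1348 genes passed in the female depot contrast (2374 over all columns), with Pdgfrb at -0.19. Within column 9, 5 of 8 markers passed in the male one (1979 of 8518 genes), with Fmo2 at 0.36 and Pdgfrb at -0.30. Leaving out wells A7 to H7 was chosen after seeing the high Icam1 and Mgp there, and it itself widens their depot difference. It gave 149 genes in the iWAT sex contrast, 6 in that of pgWAT and 10 in the interaction, with Pdgfrb at -0.0057 between the sexes of iWAT. In the male depot contrast 5 of 6 markers then passed (1582 of 7769 genes). This is no test of Icam1 or Mgp, since the wells were picked on them. Within those wells 1 marker, Mgp, passed between the sexes (328 of 7675 genes did), with F3 at 0.24. Pdgfrb in the interaction was -0.0060 with RLE factors, -0.0049 in DESeq2 and -0.050 in limma-voom, where F3 was 0.060. Apart from fewer libraries or genes tested, the causes were not tested.

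Leaving out 1 library at a time gave 1184 (without pgWAT male 4) to 1905 genes in the male depot contrast, 0 to 9 in the pgWAT sex contrast (9 without pgWAT male 4) and 3 (without pgWAT male 2) to 31 (without pgWAT male 1) in the interaction. It gave 0 to 1 markers in the iWAT sex contrast, where Vcam1 passed in 5 of 29 fits and Fmo2 in 1. Signs turned only for differences that were not called: Pdgfrb ran from -0.036 to 0.15 in the depot contrast, from -0.14 to 0.23 in the male one, from -0.046 to 0.30 between the sexes of pgWAT and from -0.20 to 0.16 in the interaction. Between the sexes of iWAT F3 ran from -0.15 to 0.073. Between those of pgWAT Icam1 ran from -0.38 to 0.047, F3 from -0.48 to 0.012 and Pdgfra from -0.035 to 0.19. In the male depot contrast Icam1 ran from -0.015 to 0.41 and Fmo2 from -0.77 to 0.0088, and in the interaction F3 ran from -0.45 to 0.041 and Fmo2 from -0.50 to 0.28. Icam1 passed the depot contrast without iWAT male 4 (0.63), iWAT male 5 (0.63) or iWAT female 2 (0.61), and the female one in 7 of 29 fits (0.86 to 1.01). Vcam1 passed the male depot contrast without pgWAT female 2 (0.53, FDR 0.0345). Pdgfra did not pass the female depot contrast without pgWAT female 2 (0.32, FDR 0.0669).

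The mean correlation between markers was 0.30 within iWAT and 0.00061 within pgWAT. No paired analysis was possible because the labels give no replicate numbers and those used only name a library. Wells share experiments that the labels do not give, a library holds about 3 counts at 2.72 to 9.51 CPM, and Clec11a, Meox2 and Fmo2 are limited by counts.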
